A study of Mus musculus with 610 samples.

Results

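Sox13 and Sox4 are the SOX family genes among the 48 quantitative PCR assays read in single thymus cells of the mouse. They were taken by name, as 2 of the 48 assays, and the rule that selects them uses no measured value, although results of these data were known when it was set. Each was read in all 610 cells of the series. In RefSeq's annotation of GRCm38.p6, Sox13 lies on the minus strand of chromosome 1 from 133382300 to 133424459, and Sox4 on the minus strand of chromosome 13 from 28948919 to 28953699. The sources used here do not give which exons the primers amplify.

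SOX proteins are transcription factors that bind the minor groove of DNA through an HMG box, a domain shared with the T cell factors Tcf7 and Lef1 and with Tox. Sox13 is an early mark of the gamma delta T cell lineage and is needed for Tgd17 cells, the gamma delta T cells that secrete interleukin 17. Sox4 acts in early lymphocyte development in both the B and T lineages, and Tgd17 cells also depend on it.

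The cells were captured on a Fluidigm C1 and came from 4 sorted thymus populations. B6 DN1d cells (C57BL/6J mice, postnatal days 7 to 10) were live and TCRd-, Lin-, CD44+, CD25-, CD24+ and cKit-, and gave 223 cells in 3 runs of 72, 70 and 81. Tcrd-/- DN1d cells, of the same ages and gate, carried the Tcrd tm1Mom allele, and 86 of them were captured in 1 run. The Rag1-/- cKit- group, sorted as CD44+, CD25- and cKit- on postnatal days 0 to 2, lacked the Rag1 recombinase and had 223 cells, with 89, 52 and 82 in its 3 runs. B6 DN2 cells (C57BL/6J, postnatal days 7 to 10) were CD44+, CD25+ and cKit+ and gave 78 cells in 1 run. The Rag1-/- group therefore differs from B6 DN1d in genotype, age and gate, and the DN2 group in gate, including CD25 and cKit. Both knockouts affect the whole animal, and the labels do not say which animals went into a run.

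Level means 24 minus the threshold cycle (Ct), in PCR cycles, with an undetected reaction at 0. The level scale is logarithmic, and 1 cycle stands for about a doubling of template at full efficiency. The mean number of assays detected per cell ranged from 19.2 to 30.9 over the 8 runs, with the lowest values in the B6 DN1d runs and the highest in the Tcrd-/- run. Gapdh, the reference assay, was detected in all 610 cells at a mean level per run of 14.2 to 15.6. The T lineage markers Tcf7, Gata3 and Bcl11b were detected in every run, the lowest share being 37% for Bcl11b in B6 DN1d run 3. The summed mean level of 4 myeloid markers (Csf1r, Spi1, Csf2rb2, Gp49a) was 2.24, 2.96 and 5.35 in the B6 DN1d runs, 2.00 in the Tcrd-/- run, at most 0.419 in the Rag1-/- runs and 6.80 in the DN2 run, where Spi1 made up most of it (63 of 78 cells). Csf1r was at 0 in every run but the DN2 run (2 cells), where Csf2rb2 was at 0. What these differences contribute to the results was not tested, except where the number of detected assays was adjusted for.

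Sox13 was found in some B6 DN1d cells, in nearly all Tcrd-/- DN1d and most DN2 cells, and in few Rag1-/- cells. It was detected in 36 of 72, 31 of 70 and 26 of 81 cells of the B6 DN1d runs, or 50%, 44.3% and 32.1%. In the Rag1-/- runs it was detected in 10 of 89, 2 of 52 and 13 of 82 cells, or 11.2%, 3.85% and 15.9%. In the runs without a replicate it was detected in 83 of 86 Tcrd-/- cells (96.5%, exact Clopper-Pearson 95% interval 90.1% to 99.3%) and in 69 of 78 DN2 cells (88.5%, 79.2% to 94.6%). The shares of the B6 DN1d and Rag1-/- runs did not overlap, and both single runs lay above every B6 DN1d run. How many of the other assays separate in this way was not counted.

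**Figure D1:**
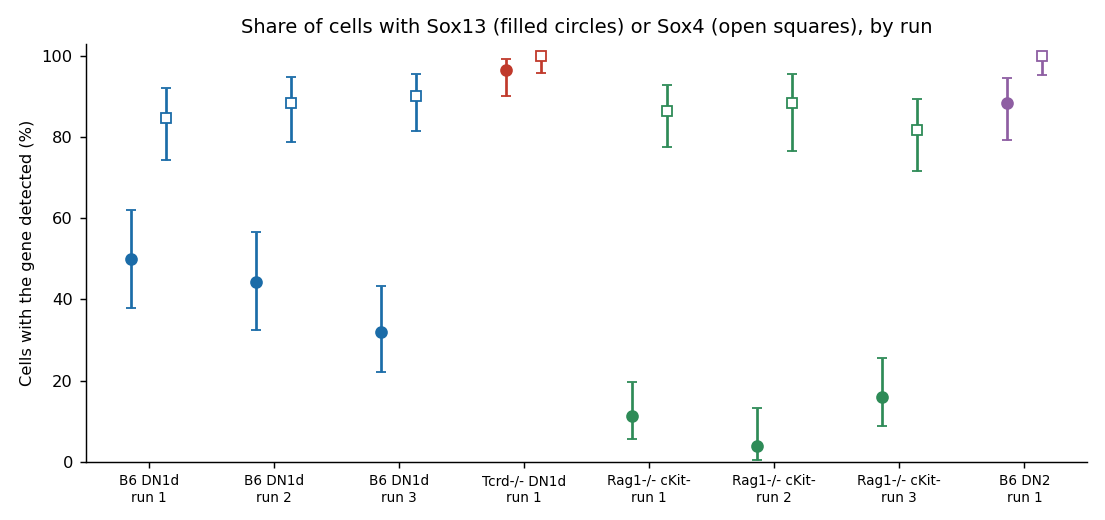
Share of cells with Sox13 (filled circles) or Sox4 (open squares) detected, in percent, for each of the 8 runs, with exact 95% intervals that cover counting error only. Sox13 ranged from 3.85% to 96.5% over the runs, and Sox4 from 81.7% to 100%.

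The mean share of Sox13 cells was 42.1% ± 9.14 (SD, n = 3 runs) in B6 DN1d and 10.3% ± 6.06 (n = 3) in Rag1-/-. On the logit scale Sox13 fell by 1.90 ± 0.39 (SE) in Rag1-/- cells (limma, adjusted p = 0.000249). It rose by 3.49 ± 0.55 in Tcrd-/- cells (adjusted p = 3.74e-05) and by 2.31 ± 0.55 in DN2 cells (adjusted p = 0.000758), where the single runs were assumed to vary like the others. Such calls were common in this panel: 59.6% of the 47 assays tested were called in either direction in Rag1-/-, 55.3% in Tcrd-/- and 66% in DN2 cells against B6 DN1d. With the run values adjusted for the number of other assays detected in the cell, by a slope common to all runs, the DN2 difference turned to -0.39 (adjusted p = 0.532) and the Tcrd-/- difference became 1.34 (adjusted p = 0.0834). The Rag1-/- call remained under every alternative tried.

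The level of Sox13 in the cells that had it set the groups in another order. In detected cells the median level was 9.98, 9.29 and 10.8 in the B6 DN1d runs, 12.3 in the Tcrd-/- run, 7.71, 6.91 and 6.56 in the Rag1-/- runs, and 7.24 in the DN2 run. DN2 cells thus held Sox13 often but at a low level, close to that of the few Rag1-/- cells with the gene. A level of 10 or more was reached by 17 of 36, 8 of 31 and 18 of 26 Sox13 cells in the B6 DN1d runs and by 73 of 83 in the Tcrd-/- run (88%). It was reached by 1 of 69 in the DN2 run (1.45%) and by 0 of 10, 0 of 2 and 1 of 13 in the Rag1-/- runs. The mean level in detected cells was 4.54 ± 1.13 cycles (SE) higher in Tcrd-/- than in DN2 cells (limma, adjusted p = 0.0115), a comparison in which 16.7% of the 36 assays tested were called. Each of these groups is 1 run, so the SE and p take their spread from the B6 DN1d and Rag1-/- runs, and a difference between runs cannot be told apart from one between groups. It was 4.51 ± 0.98 higher in Tcrd-/- than in Rag1-/- cells (adjusted p = 0.0064, 25% called). DN2 and Rag1-/- cells differed by -0.02 cycles, with a 95% interval from -2.15 to 2.10 (adjusted p = 0.981).

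Against B6 DN1d, the level of Sox13 in detected cells missed the threshold in each comparison. It also missed it under 7 of 10 alternatives in DN2, 9 of 10 in Tcrd-/- and 5 of 10 in Rag1-/- cells. Over all alternatives the difference ranged from -2.89 to -2.02 in DN2, 1.68 to 2.52 in Tcrd-/- and -3.09 to -1.60 in Rag1-/- cells. The mean was 9.53 ± 0.66 (SD, n = 3 runs) in B6 DN1d and 7.16 in DN2, a difference of -2.37 ± 0.92 (SE) with adjusted p = 0.065, in a comparison where 11.1% of assays were called. Tcrd-/- cells stood at 11.7, a difference of 2.17 ± 0.92 (adjusted p = 0.113, 2.78% called). Rag1-/- cells stood at 7.18 ± 1.05 over 2 runs, since run 2 had only 2 Sox13 cells and was left out, a difference of -2.35 ± 0.73 (adjusted p = 0.0511, 11.1% called). These values lie near the threshold: relative to Gapdh, the DN2 difference was -2.89 (adjusted p = 0.035) and the Rag1-/- difference -2.85 (adjusted p = 0.0133). Without B6 DN1d run 2 these differences became -2.67 (adjusted p = 0.0498) and -2.65 (adjusted p = 0.042). Without B6 DN1d run 3 the Tcrd-/- difference was 2.52 (adjusted p = 0.0435), and without Rag1-/- run 1 the Rag1-/- difference was -3.09 (adjusted p = 0.0323).

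**Figure D2:**
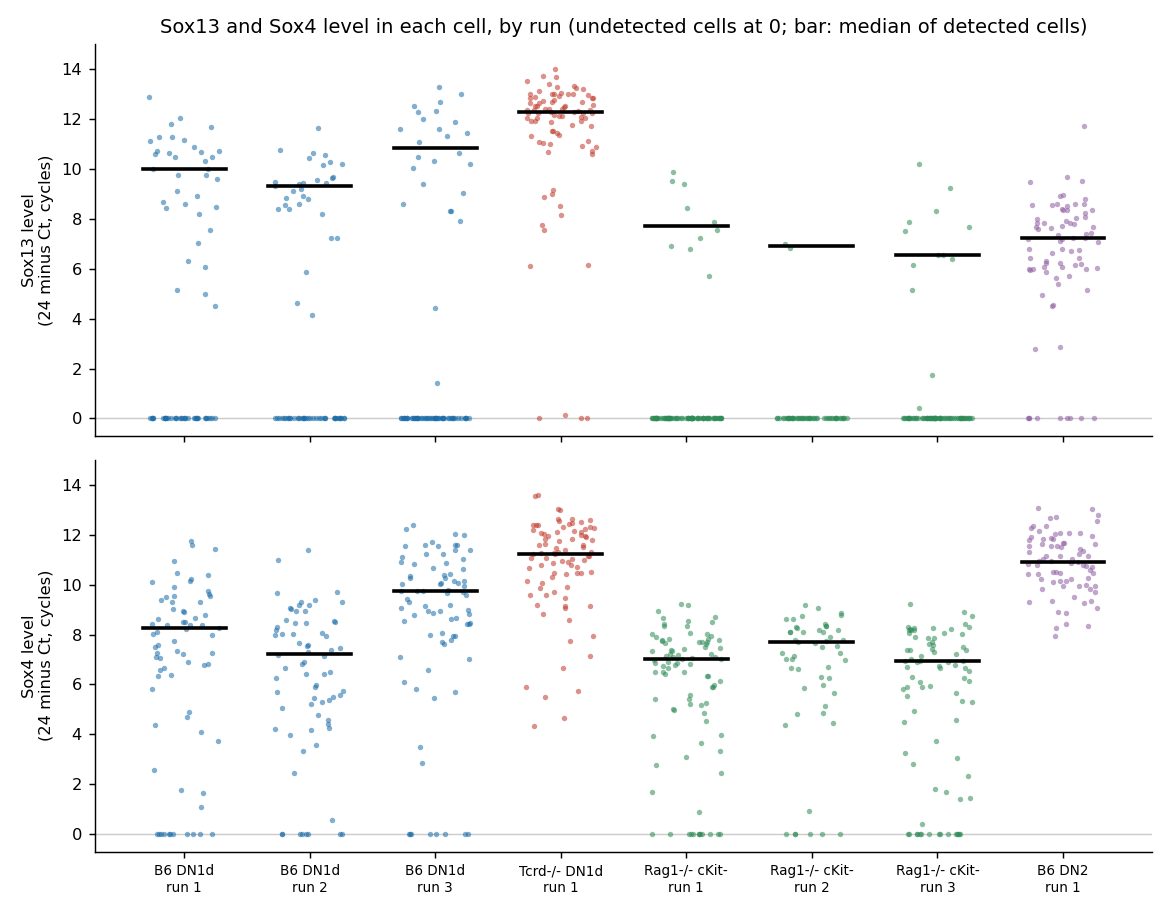
Level of Sox13 (upper panel) and Sox4 (lower panel) in cycles, 1 point per cell, by run, with undetected cells at 0 and a bar at the median of detected cells. The Sox13 cells of the DN2 run centre on 7.24 and those of the Tcrd-/- run on 12.3, while the Sox4 medians of these runs are 10.9 and 11.2.

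Sox4 was found in most cells of every population, and in every Tcrd-/- and DN2 cell. It was detected in 84.7%, 88.6% and 90.1% of the B6 DN1d cells by run, in 86.5%, 88.5% and 81.7% of the Rag1-/- cells, in 86 of 86 Tcrd-/- cells (95.8% to 100%) and in 78 of 78 DN2 cells (95.4% to 100%). The shares of the B6 DN1d and Rag1-/- runs overlapped. Their difference in logit was -0.19, with a 95% interval from -0.90 to 0.52 (limma, adjusted p = 0.671). Sox4 rose by 3.21 ± 0.48 in logit in Tcrd-/- cells (adjusted p = 2.65e-05) and by 3.11 ± 0.48 in DN2 cells (adjusted p = 6.78e-06). Both single runs had Sox4 in every cell, so these logits depend on the 0.5 added to each side.

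The median Sox4 level in detected cells was 8.25, 7.23 and 9.76 in the B6 DN1d runs, 7.03, 7.68 and 6.92 in the Rag1-/- runs, and, in the single runs, 11.2 for Tcrd-/- and 10.9 for DN2 cells. The B6 DN1d and Rag1-/- runs overlapped, and both single runs lay above all of them, which was not counted for the other assays. No DN2 cell had a Sox4 level under 7.95. A level of 10 or more was reached by 9 of 61, 2 of 62 and 32 of 73 Sox4 cells in the B6 DN1d runs, so run 3 stood above the other two. It was reached by 0 of 77, 0 of 46 and 0 of 67 Rag1-/- cells, where the exact intervals end at 4.68%, 7.71% and 5.36%. It was reached by 65 of 86 Tcrd-/- cells (75.6%) and 59 of 78 DN2 cells (75.6%).

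The mean Sox4 level in detected cells was 8.03 ± 1.25 (SD, n = 3 runs) in B6 DN1d and 6.72 ± 0.43 (n = 3) in Rag1-/-, and the difference of -1.31 ± 0.68 (SE) did not pass (limma, adjusted p = 0.203). The differences of DN2 and Tcrd-/- cells from B6 DN1d did not pass either, nor under 7 of 10 and 8 of 10 alternatives. Over all alternatives they ranged from 2.27 to 3.50 in DN2 and from 2.16 to 3.39 in Tcrd-/- cells. DN2 cells stood at 10.9 and Tcrd-/- cells at 10.7, which is 2.82 ± 0.97 (adjusted p = 0.065) and 2.72 ± 0.97 (adjusted p = 0.105) above B6 DN1d. Without B6 DN1d run 3, the run with the highest Sox4 level of that group, these differences were 3.50 (adjusted p = 0.00553) and 3.39 (adjusted p = 0.00829). Without Rag1-/- run 1 the DN2 difference was unmoved at 2.82 but its adjusted p was 0.0482. Against Rag1-/-, Sox4 was 4.14 ± 0.97 higher in DN2 cells (adjusted p = 0.00777, 13.9% of assays called) and 4.03 ± 0.97 higher in Tcrd-/- cells (adjusted p = 0.0064).

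Between the Tcrd-/- DN1d run and the DN2 run, the difference passed the threshold for Sox13 level and not for Sox4 level. With 1 run on each side, these tests borrow their spread from the other groups. For Sox4 in detected cells they differed by -0.11 cycles, with a 95% interval from -2.66 to 2.45 (limma, adjusted p = 0.967), which does not show that they are equal. For Sox13 the difference was 4.54 cycles, with an interval from 2.09 to 6.99. By share of cells, the difference of these groups was 1.18 in logit for Sox13 (adjusted p = 0.125) and 0.10 for Sox4 (adjusted p = 0.898), in a comparison where 68.1% of assays were called. The order of the groups by Sox13 share was Tcrd-/-, DN2, B6 DN1d and Rag1-/-, and only the first pair of neighbours did not differ past the threshold. By Sox4 share, DN2 and Tcrd-/- cells, both at 100%, stood above B6 DN1d and Rag1-/- cells, and each differed from B6 DN1d past the threshold. DN2 and Tcrd-/- cells did not differ past it from each other, nor did B6 DN1d and Rag1-/- cells.

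The mean level over all cells, which joins share and level, was 3.98 ± 0.72 (SD, n = 3 runs) for Sox13 in B6 DN1d and 0.726 ± 0.40 (n = 3) in Rag1-/- cells, against 11.3 for Tcrd-/- and 6.33 for DN2 cells. Sox13 rose by 7.30 ± 0.62 cycles (SE) in Tcrd-/- cells (limma, adjusted p = 0.000636, 61.7% of 47 assays called) and fell by 3.26 ± 0.44 in Rag1-/- cells (adjusted p = 0.00335, 55.3% called). It rose by 2.35 ± 0.62 in DN2 cells (adjusted p = 0.0332, 57.4% called). For Sox4 the mean level was 7.06 ± 1.23 in B6 DN1d and 5.76 ± 0.59 in Rag1-/-, a difference that did not pass (adjusted p = 0.181). Sox4 rose by 3.79 ± 1.01 in DN2 cells (adjusted p = 0.0332) and by 3.68 ± 1.01 in Tcrd-/- cells (adjusted p = 0.0256).

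The calls on mean level that involve DN2 cells and Sox4 rest on single runs. For DN2 cells the Sox13 call was lost without B6 DN1d run 2 (adjusted p = 0.0736), Rag1-/- run 1 (0.0658) or Rag1-/- run 3 (0.0598), and the Sox4 call without these runs (0.0673, 0.0658 and 0.0598) or without B6 DN1d run 1 (0.079). The Sox4 call for Tcrd-/- cells was lost without B6 DN1d run 1 (adjusted p = 0.0657), B6 DN1d run 2 (0.0569) or Rag1-/- run 1 (0.0521). Adjusted for the number of other assays detected, the Sox13 difference of DN2 cells turned to -1.71 (adjusted p = 0.0205), past the threshold in the opposite direction. The Sox4 differences then shrank to 1.78 in DN2 (adjusted p = 0.258) and 1.10 in Tcrd-/- cells (adjusted p = 0.63). As medians over cells, the Sox13 difference of Rag1-/- cells was -0.75 (adjusted p = 0.64).

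The panel held 3 further HMG box genes, and these did not share 1 order over the groups with Sox13 or Sox4. Tcf7, a T cell factor of early T lineage specification, was detected in 60.5% ± 1.96 of B6 DN1d cells (SD, n = 3 runs), 95.4% ± 3.30 of Rag1-/- cells, 91.9% of Tcrd-/- cells and 100% of DN2 cells. Lef1, its relative, was detected in 48.3% ± 1.98, 29.1% ± 13.1, 91.9% and 7.69% of these cells. Tox, which acts in innate lymphoid and T cell development, was detected in 58.6% ± 3.96, 82% ± 6.91, 91.9% and 98.7%. The DN2 run thus had the lowest share of the 4 groups for Lef1 but the next to highest for Sox13. Of the 5 HMG box genes, 4 rose and 1 fell by share in DN2 cells, where 44.7% of all 47 assays rose and 21.3% fell. In Tcrd-/- cells 5 rose (55.3% of all assays; 0% fell), and in Rag1-/- cells 2 rose and 2 fell (34% and 25.5%). The list had median logit differences of 3.11, 2.43 and -0.19 against 0.99, 1.34 and 0.41 over all 47 assays.

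Over the 8 runs, the logit shares most like that of Sox13 were those of Smo (Pearson r = 0.901), the Hedgehog signal transducer, Myb (0.889), a progenitor transcription factor, and Sox4 (0.863). The mean level of Sox4 was most like that of Smo (0.953), Myb (0.904) and Cpa3 (0.904), a protease of mast cells and progenitors. Runs of a group are not independent points of this order, and runs differ in the number of detected assays, so these values only describe which assays followed the same order of runs.

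Within single cells, Sox13 was rarely found without Sox4. In the B6 DN1d runs, both genes were detected in 34, 30 and 24 cells, Sox13 alone in 2, 1 and 2, Sox4 alone in 27, 32 and 49, and neither in 9, 7 and 6. In the Rag1-/- runs both were detected in 10, 2 and 11 cells and Sox13 alone in 0, 0 and 2, while Sox4 alone was found in 67, 44 and 56 cells. Of the Tcrd-/- cells 83 had both and 3 had Sox4 alone, and of the DN2 cells 69 had both and 9 had Sox4 alone. Because Sox4 was present in most cells, few cells could hold Sox13 alone in any case. In B6 DN1d, Sox4 was detected in 94.4%, 96.8% and 92.3% of Sox13 cells and in 75%, 82.1% and 89.1% of cells without Sox13. The natural log odds ratio was 1.12 ± 0.41 (SE), with 1.56, 1.55 and 0.25 in the runs, and did not pass (limma, adjusted p = 0.104).

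**Figure D3:**
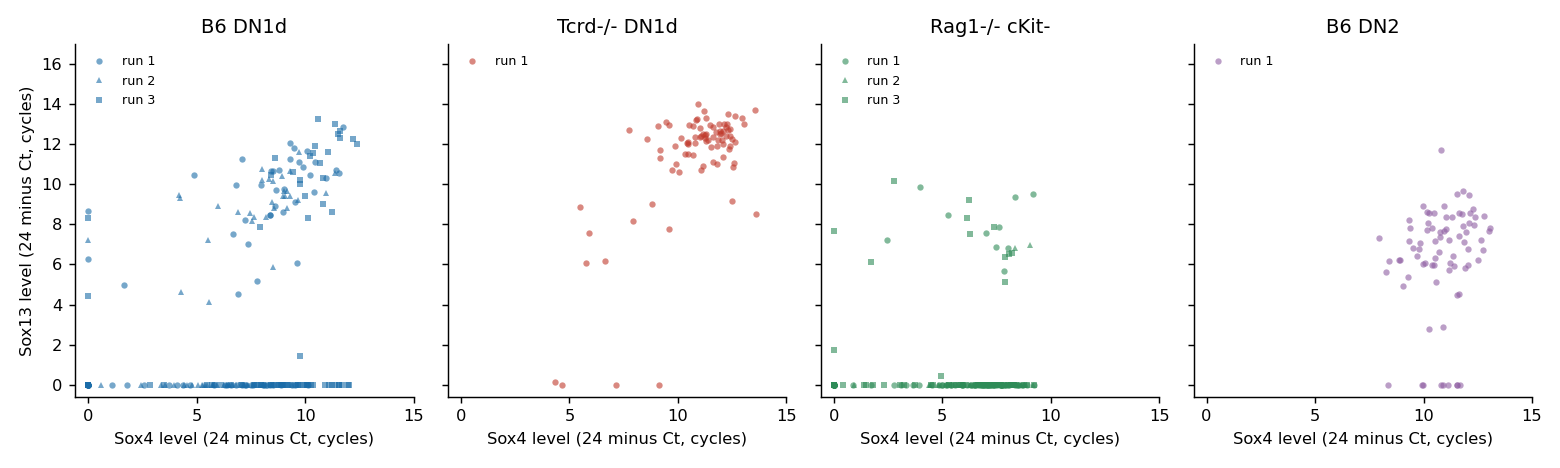
Sox13 level against Sox4 level in each cell, both in cycles, by group, with undetected reactions at 0 and marker shape giving the run. Sox13 cells of B6 DN1d lie mostly at high Sox4 levels, while in the DN2 run the 69 cells with Sox13 had a mean Sox4 level of 10.9 and the 9 without it 10.7.

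The Sox4 level differed by Sox13 state in B6 DN1d cells. With undetected reactions at 0, mean Sox4 level was 8.22, 7.76 and 9.65 in Sox13 cells of the 3 runs and 4.96, 4.84 and 7.90 in the others. The difference was therefore 3.26, 2.91 and 1.75 cycles, higher in 3 of 3 runs. Its mean was 2.64 ± 0.57 (SE; limma on the level of each gene by Sox13 state, adjusted p = 0.00177). In that test 52.5% of 40 genes were called, and Sox4 ranked 16th by size. Blk, a Src family kinase, Myb and Etv5, an ETS factor, differed most among the genes the rule names, by 8.68 ± 0.60, 7.56 ± 0.72 and 6.86 ± 0.58 cycles. Without B6 DN1d run 1 the Sox4 difference was 2.33 (adjusted p = 0.0702).

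In tertiles of the cells of each run ranked by Sox4 level, the share with Sox13 rose in each B6 DN1d run: 16.7%, 50% and 83.3% in run 1, 16.7%, 34.8% and 82.6% in run 2, and 14.8%, 25.9% and 55.6% in run 3. In the DN2 run it was 88.5%, 84.6% and 92.3%. In the Rag1-/- runs it was 10%, 3.33% and 20.7%, then 0%, 0% and 11.8%, then 17.9%, 11.1% and 18.5%. The 3 Tcrd-/- cells without Sox13 were all in the lowest tertile of Sox4 level, where 89.7% had Sox13 against 100% in the others. A stepwise order from low to high was thus seen in B6 DN1d and not in the DN2 or Rag1-/- runs, a difference that was not tested in this form.

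**Figure D4:**
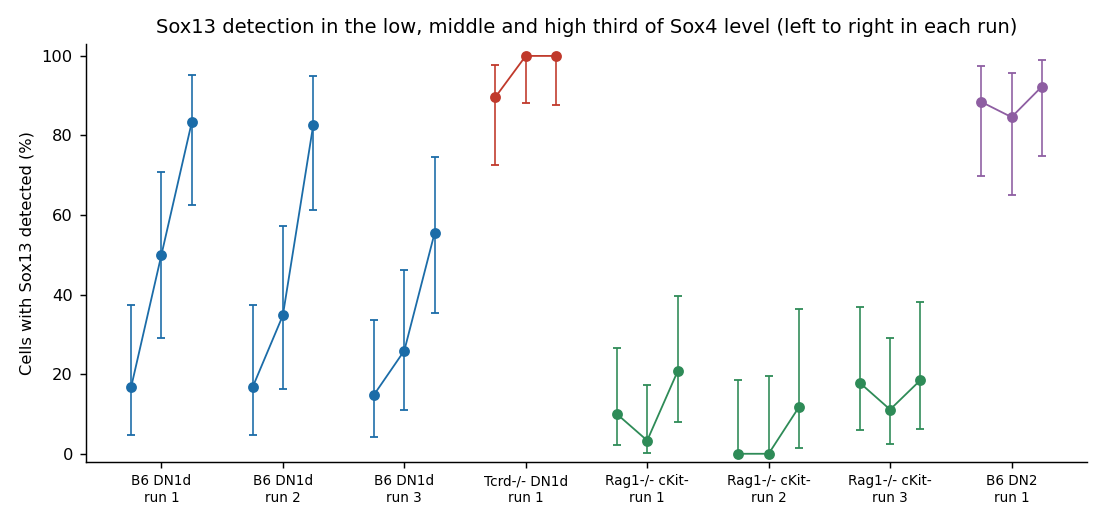
Share of cells with Sox13 detected (percent, with exact 95% intervals for counting error) in the low, middle and high tertile of cells by Sox4 level, left to right within each run. The B6 DN1d runs climb from 16.7%, 16.7% and 14.8% to 83.3%, 82.6% and 55.6%, and the DN2 run stays between 84.6% and 92.3%.

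Among cells with both genes, the levels of Sox13 and Sox4 had a Pearson r of 0.57, 0.54 and 0.42 in the B6 DN1d runs (Spearman 0.53, 0.54 and 0.62; 34, 30 and 24 cells). The values were 0.66 in the Tcrd-/- run (0.34; 83 cells), 0.24 in the DN2 run (0.27; 69 cells), and -0.07 and -0.06 in Rag1-/- runs 1 and 3 (-0.02 and -0.15; 10 and 11 cells). The cells of a run share a capture and a range of detected assays, so these values are descriptions. The mean of Sox13 level minus Sox4 level in such cells was 0.85, 0.96 and 0.09 in the B6 DN1d runs, 0.81 for Tcrd-/- and -3.72 for DN2 cells. The zero of this difference depends on the primers. Whether its change between runs also depends on primer efficiency or on the run was not assessed. In the Rag1-/- runs it was 1.21, -1.79 and 0.61, from 10, 2 and 11 cells. It was lowest in the DN2 run, where cells with both genes held less Sox13 relative to Sox4 than in the DN1d runs, a difference that was not tested.

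The number of other assays detected moved with both genes in B6 DN1d. It averaged 23.8, 23.9 and 23.96 in Sox13 cells and 15.7, 15.7 and 16.5 in cells without Sox13, and 20.5, 19.5 and 18.7 against 13.3, 14.2 and 14.9 by Sox4 state. Mean Gapdh level was 15.0, 14.5 and 14.5 in Sox13 cells and 15.1, 13.9 and 14.7 in the others, higher in Sox13 cells in 1 of 3 runs. By Sox4 state it was 15.2, 14.3 and 14.7 in cells with Sox4 and 14.7, 13.2 and 14.2 in cells without it, higher with Sox4 in each run. Adjusted within each run for the number of other assays detected, the Sox4 difference by Sox13 state was 0.40 cycles (adjusted p = 0.463), and the log odds ratio was -0.26 (adjusted p = 0.82).

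Sox4 level was next set against each other gene of the panel in B6 DN1d. It differed with 27 of 40 partners (67.5%, limma), being higher in cells with 22 of them (55%) and lower in cells with 5 (12.5%). The largest rises that the rule names were with Blk (3.22 cycles; 3.87, 2.79 and 3.00 by run, adjusted p = 1.73e-05), Gzma (3.14, a granzyme protease; adjusted p = 1.73e-05), Myb (3.10), Tox (2.97) and the rearranged receptor assay Vg2-Jg1 (2.91). Sox13 ranked 10th at 2.64 ± 0.59 (SE, adjusted p = 0.000115). This is the same difference as given above by Sox13 state, from the same runs, and not a further result. The present fit had 79 total degrees of freedom against 11.3 for the earlier test, although its partners split the same cells. The SE was the same for all genes with 3 runs, since the fit pooled the spread over genes. Without B6 DN1d run 2, 14 partners were past the threshold, and Sox13 stood at 2.51 (adjusted p = 0.0543). Adjusted for the number of other assays detected, 0 of 40 partners passed.

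The 5 partners with a lower Sox4 level, named after their values were seen, were Spi1 (-2.70 ± 0.72, adjusted p = 0.000972), Gp49a (-2.41), Csf2rb2 (-2.17), Cdh1 (-1.52) and Bhlhe40 (-1.35). Spi1 encodes PU.1, a factor of myeloid and early progenitor cells, and with Gp49a and Csf2rb2 it is on the myeloid marker list. In B6 DN1d run 3, the run with the highest myeloid sum, mean Sox4 level was 6.32 in 18 cells with Gp49a and 9.07 in 63 without it. In run 1 it was 4.24 in 8 cells and 6.88 in 64, and in run 2 it was 4.58 in 11 cells and 6.42 in 59. Spi1 was in at least 3 cells of B6 DN1d runs 2 and 3 only, where the Sox4 difference was -3.36 and -2.04. The calls for Csf2rb2 (adjusted p = 0.0543), Cdh1 (0.155) and Bhlhe40 (0.138) were lost without B6 DN1d run 2, that for Cdh1 also without run 3 (0.163), and that for Bhlhe40 without run 1 (0.252) or run 3 (0.0705). In the DN2 run, 63 cells with Spi1 had a mean Sox4 level of 10.96 and 15 without it 10.43.

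By detection instead of level, Sox4 was linked to 11 of 40 partners in B6 DN1d (27.5%, limma on the log odds ratio), 10 of them (25%) found with it more often and 1 (2.5%), Gp49a, less often. Those named by the rule were Myb (1.75 ± 0.41, SE), Vg2-Jg1 (1.72 ± 0.47), Blk (1.71 ± 0.35), Tox (1.67 ± 0.41) and Tcf12 (1.52 ± 0.39), an E protein, each with adjusted p from 0.0445 to 0.0448. Only 11, 8 and 8 cells of the runs lacked Sox4. Without any 1 of the 3 B6 DN1d runs 0 partners passed, and the adjusted p for Myb was then 0.197, 0.0722 and 0.0794.

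In Rag1-/- cells no partner passed, for Sox4 level (0 of 34 by limma, 1 at an unadjusted p under 0.05) or for detection (0 of 30, 6 unadjusted). The level fit had at most 4.41 total degrees of freedom in Rag1-/- cells against 79 in B6 DN1d. The counts of partners called by level in these groups are therefore not comparable. The Sox4 level difference by Blk was 0.29, -1.74 and 0.91 in the Rag1-/- runs, and that by Myb -2.55, -2.26 and -0.18, with Myb in 4, 4 and 6 cells. By Sox13 it was 1.15 and -0.007 in runs 1 and 3, a mean of 0.57 ± 0.50 (SE, adjusted p = 0.79), with run 2 left out for its 2 Sox13 cells. In the Tcrd-/- run the difference was 4.93 by Blk (77 cells with and 9 without it), 4.99 by Myb (79 and 7), 4.39 by Tox (79 and 7) and 3.91 by Sox13 (83 and 3). In the DN2 run it was 0.64 by Blk (10 and 68) and 0.23 by Sox13 (69 and 9).

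**Figure D5:**
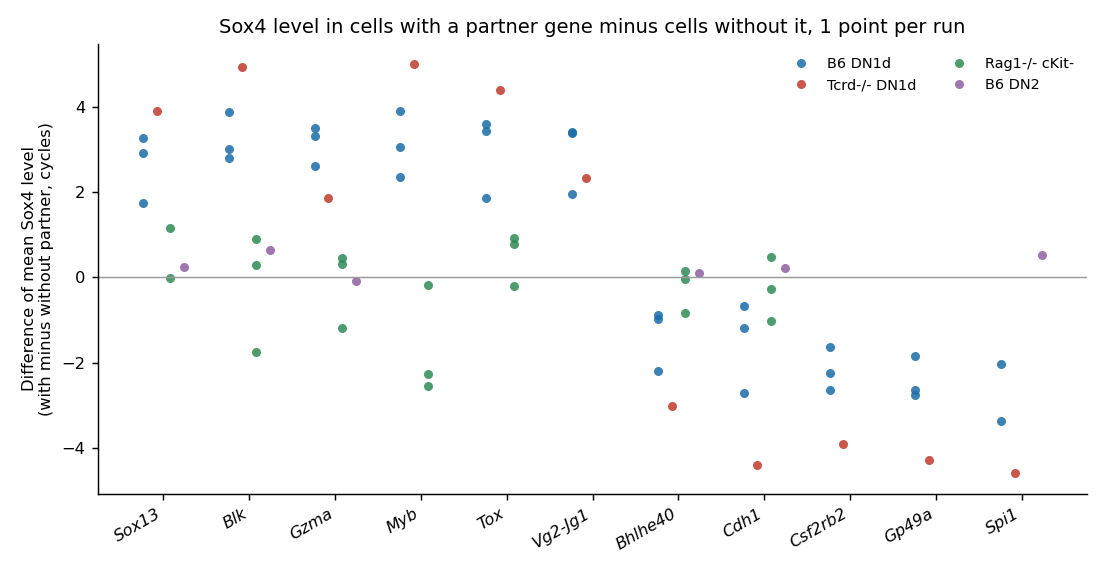
Difference of mean Sox4 level (cycles, undetected at 0) between cells with and without a partner gene, 1 point per run with at least 3 cells on each side, coloured by group. The B6 DN1d and Tcrd-/- points lie above 0 for Sox13, Blk, Gzma, Myb, Tox and Vg2-Jg1 and below 0 for the 5 genes on the right, and the points of the DN2 run lie between -0.09 and 0.64.

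The difference in co-detection with Sox4 between Rag1-/- and B6 DN1d cells was tested in 1 fit of 6 runs. It passed for 3 of 29 genes (10.3%), all lower in Rag1-/-. Myb stood at -2.55 ± 0.58 (SE, limma, adjusted p = 0.00572) and Blk at -1.97 ± 0.61 (adjusted p = 0.034). For Sox13 the difference was -0.74 ± 0.61 (adjusted p = 0.41). The Myb call was lost without Rag1-/- run 1 (adjusted p = 0.12) or run 2 (0.0681), and the Blk call without these runs (0.12 and 0.183) or without B6 DN1d run 1 (0.0883) or run 3 (0.0746). Leaving out Rag1-/- run 1 or 2 left 0 genes past the threshold, and leaving out B6 DN1d run 1 left 1.

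Among the 223 Rag1-/- cells, 25 had Sox13 and 198 did not. Of 9 other genes on the Tgd17 list, 7, 8 and 7 had a higher share in the Sox13 cells of runs 1, 2 and 3. Of the 46 assays other than Sox13 and Sox4, these 9 among them, 20, 17 and 20 did. Some of the 46 could not be higher, such as Cpa3 and Vg2-Jg1, undetected in all Rag1-/- cells, and Gapdh, detected in all. This holds the count over all assays low. The 25 came from runs 1, 2 and 3 as 10, 2 and 13 cells, so no test was made and the counts are pooled over runs. Maf, a factor of interleukin 17 producing cells, was detected in 25 of 25 against 146 of 198. Il17re, a receptor chain of the interleukin 17 family, was detected in 21 of 25 (84%, exact 95% interval 63.9% to 95.5%) against 56 of 198 (28.3%, 22.1% to 35.1%), and Blk in 13 of 25 (52%) against 20 of 198 (10.1%). Scart2 and Etv5, also on the list, were not higher in the pooled counts. Scart2 was in 23 of 25 (92%) against 186 of 198 (93.9%), and Etv5 in 0 of 25 against 8 of 198. Outside the list, Lef1 was found in 17 of 25 against 52 of 198, the chemokine receptor gene Ccr9 in 22 of 25 against 46 of 198, and Zbtb16, which encodes the innate-like lymphocyte factor PLZF, in 24 of 25 against 115 of 198. Gzma went the other way, in 3 of 25 (12%) against 97 of 198 (49%). Apart from Lef1, Myb and Etv5, the genes in these sentences were picked after their values were seen. Myb and Etv5, the partners of Sox13 in B6 DN1d cells, were each in 0 of 25 (0% to 13.7%), against 14 and 8 of 198. Other assays detected averaged 25.7, 21.5 and 26.4 in the Sox13 cells by run and 23.2, 21.5 and 23.7 in the rest.

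The genes in this paragraph were picked after their values were seen. The 3 Tcrd-/- cells without Sox13 had Sox4, Bcl11b, Gata3 and Runx1 in 3 of 3, and Il7r and Nfil3 in 2 of 3. They had Tcf7, Tox, Myb, Blk, Gzma and Il17re in 0 of 3, with 18.7 other assays detected on average against 30.3 in the 83 Sox13 cells. Their mean Sox4 level was 6.97 against 10.9. In the DN2 run, Tcf7 and Myb were in all 9 cells without Sox13 and all 69 with it, and Tox in 9 of 9 and 68 of 69. These genes had little room to differ in that run. Blk was in 1 of 9 and 9 of 69. Other genes differed more in share: Il7r was in 6 of 9 and 67 of 69, Nfil3 in 0 of 9 and 19 of 69, and Maf in 7 of 9 and 40 of 69. Mean Sox4 level was 10.7 without Sox13 and 10.9 with it, and other assays detected averaged 25.3 and 27.9.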

How the data were processed

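Per the labels' protocols, single cells were lysed and reverse transcribed on a Fluidigm C1, preamplified for 18 cycles with pooled primers, and read with EvaGreen over 30 quantitative PCR cycles. The authors deposited 1 table of Ct values, an assay-specific scale with no normalization, for 48 assays and 610 cells. Of its reactions 50.5% stand at 24, treated here as undetected. The sources used here do not give how Ct was called. Sox13 was detected in 270 cells and Sox4 in 550, of which 4 and 12 had a Ct of 22 to 24.

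The replicate was the run, read from each cell's title, with 1 value per run and assay: the empirical logit of the share detected (0.5 added to each side), the mean level, or the mean level in at least 3 detected cells. Each measure was fitted over all assays with limma 3.58.1 (R 4.3.3), with all 8 runs in 1 fit for group comparisons. Benjamini-Hochberg adjustment was made over the assays tested, at a threshold of 0.05. These were the 47 detected in any cell, or 36 for level in detected cells. Co-detection and level by Sox13 state used assays found in 5% to 95% of the cells of each group entered. Sox4 level by partner used assays with at least 3 cells on each side in more than 1 run. Run and group cannot be told apart, since each run holds 1 group. The spread between runs, on which p-values rest, may be technical. Total degrees of freedom were 20.0 for share, 4.97 for mean level and 13.3 for level in detected cells. For Sox4 level by partner they were 79 in B6 DN1d and at most 4.41 in Rag1-/- cells. The fits of share, of level in detected cells and, in B6 DN1d, of co-detection and Sox4 level by partner were first tried on simulated data. In the simulated cells each assay was drawn independently once Sox4 was set. They therefore could not show how partners that split the same cells affect the calls. The other fits were not tried in this way. Tables were made with Python 3.11.15. Exact intervals of shares cover counting error only, while intervals of limma differences rest on the spread between runs.

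The members, lists and tests were chosen with earlier results of these data known. The rule for named genes took Sox13 and Sox4, the 6 largest partners past the threshold in each fit of Sox4, the 4 largest genes by Sox13 state, and the 3 genes most like each member over runs. One more gene that met this rule is counted but not reported here. Alternatives were a ceiling of 22, cells with at least 10 assays, levels relative to Gapdh, medians over cells, 1 added in place of 0.5, adjustment for the number of other assays detected (a logistic fit with a penalty of 0.1, or a linear fit), and leaving out each run. Of the other lists, B cell markers had 0 members on the panel.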

Additional observations from a re-analysis of the deposited data

Results flagged for a closer look

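The co-detection of Sox4 with Myb differed between populations: the difference of the natural log odds ratio (Rag1-/- cKit- minus B6 DN1d) was -2.55, with run values of 1.76, 1.02 and 2.48 in B6 DN1d and -1.02, -1.22 and -0.16 in Rag1-/-. Myb was in 4, 4 and 6 cells of the Rag1-/- runs. The co-detection of Sox4 with Blk differed in the same contrast by -1.97, with run values of 1.91, 1.42 and 1.81 in B6 DN1d and 0.18, -1.58 and 0.63 in Rag1-/-. Both drew attention because the test of the difference between populations passed. Adjusted for the number of other assays detected, the differences were -1.48 (limma, adjusted p = 0.523) and -0.81 (adjusted p = 0.76).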

How the results depend on the processing

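Of 56 results recomputed under the alternatives, 12 kept their direction and their side of the threshold under all of them. The fall of Sox13 detection in Rag1-/- cells and the Sox4 detection rises in DN2 and Tcrd-/- cells were among these 12. Over all results, 453 of 568 values were unchanged. These include counts of calls, which were instead judged by whether the count stayed near its main value. The cause of the changes below was not tested.

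Adjusted for the number of other assays detected, differences against B6 DN1d in DN2 cells were -0.39 for Sox13 detection, -1.71 for Sox13 mean level and 1.78 for Sox4 mean level. In Tcrd-/- cells they were 1.34 for Sox13 detection and 1.10 for Sox4 mean level. Sox4 detection in Tcrd-/- minus DN2 cells turned to -0.033. In B6 DN1d the log odds ratio of Sox13 with Sox4 turned to -0.26 and the Sox4 level difference by Sox13 shrank to 0.40 in both fits, and the Rag1-/- minus B6 DN1d difference of that log odds ratio turned to 1.26. Calls fell to 0 for co-detection with Sox4, for Sox4 level by partner and for the difference in co-detection, and to 12 for level by Sox13. With a ceiling of 22, mean Sox13 level in DN2 cells was 1.42 above B6 DN1d. Levels in detected cells then differed by -2.49 (Sox13) and 2.68 (Sox4) in DN2, by 2.57 (Sox4) in Tcrd-/- and by -1.98 (Sox13) in Rag1-/- cells, each past the threshold. That ceiling left 3 calls of co-detection with Sox4 and 6 of its difference.

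As medians over cells, Sox4 mean level differences were 2.98 in DN2 and 3.28 in Tcrd-/- cells, and the Sox13 one -0.75 in Rag1-/- cells. The Sox13 difference in detected Rag1-/- cells was -2.90. Sox4 in Tcrd-/- minus DN2 cells turned to 0.30 for both level measures. Relative to Gapdh, Sox13 in detected cells differed by -2.89 in DN2 and -2.85 in Rag1-/- cells. With 1 added in place of 0.5, the log odds ratio of Sox13 with Sox4 in Rag1-/- cells turned to -0.012 and 1 partner passed there. With cells of at least 10 assays, 0 partners passed by co-detection in B6 DN1d.

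Leaving out 1 run at a time, mean level in DN2 against B6 DN1d ranged from 2.00 to 2.72 for Sox13 and from 3.33 to 4.49 for Sox4, and Sox4 in Tcrd-/- cells from 3.22 to 4.38. In detected cells the ranges were -2.67 to -2.02 (Sox13) and 2.27 to 3.50 (Sox4) in DN2, 1.86 to 2.52 and 2.16 to 3.39 in Tcrd-/-, and -3.09 to -1.60 (Sox13) in Rag1-/- cells. Sox4 level by Sox13 in B6 DN1d ranged from 2.33 to 3.09. The log odds ratio of Sox13 with Sox4 in Rag1-/- cells ranged from -0.11 to 0.73. Calls ranged from 0 to 11 for co-detection in B6 DN1d, 0 to 1 for both Rag1-/- fits, 14 to 27 for Sox4 level by partner and 0 to 4 for the difference. No paired analysis was possible because run numbers only name runs. With 1 run each, the Tcrd-/- and DN2 groups carry no spread of their own.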
